A study of Sus scrofa domesticus with 28 samples.

Results

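MT1A and MT3 are metallothioneins. They were followed here across skin and scar biopsies of red Duroc pigs through every array probe whose transcript accession is that of pig MT1A or MT3. They are 2 of the 3152 genes that could be named on the array and are read by 3 of its 43603 probes, 2 for MT1A (A_72_P079681 and A_72_P744498) and 1 for MT3 (A_72_P165641). All 3 were well above background in the biopsy channel on all 28 arrays, and none was saturated or flagged as an outlier. Where MT1A is named alone, the value is that of its brighter probe, A_72_P079681.

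Metallothioneins are small, cysteine-rich proteins that bind zinc and copper ions in the cell and buffer their free level. Their genes are switched on by zinc through the metal-sensing transcription factor MTF1, and also by glucocorticoids and oxidative stress. In skin, metallothionein is known mainly from keratinocytes, the cells of the epidermis, above all those of the dividing basal layer and of hair follicles. MT1A is one of the broadly expressed forms, and MT3 is known from human and mouse as a form of the brain.

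The study took 28 biopsies from 2 juvenile castrated male red Duroc pigs, numbered 49 and 50, a breed whose deep wounds heal as thick scars. The scar groups were early, mid and late scar, each hyperpigmented (hyper) or hypopigmented (hypo), and all early scar was sham-treated. In mid and late scar the biopsies were pressure-treated or sham-treated. Early hyper and early hypo scar had 4 biopsies each, the 8 groups of mid and late scar had 2 each (1 per animal), and control skin had 4. A replicate is named by its animal and body side, so that 50L is the left side of animal 50. All pressure-treated biopsies came from the right side and all sham-treated mid and late biopsies from the left, so that treatment and side cannot be told apart in mid and late scar. A code in the titles, meaning not stated, also separates all hyper from all hypo biopsies and cannot be told apart from pigmentation. The titles of scar biopsies also hold a number whose unit is not stated and which was not used. It is the same in all early biopsies but differs within some of the mid and late pairs compared below. The biopsies came from only 2 animals, so a p value is set by how biopsies of the same 2 pigs differ and says nothing of the spread over pigs in general.

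Each biopsy RNA, labelled with the dye Cy5, shared an array with a universal pig reference RNA labelled with Cy3. A level is therefore the log2 ratio of biopsy to reference, and 0 means equal signal. Ratios of different probes are not comparable as amounts, so levels are compared only between biopsies for the same gene, and genes are compared only by their differences between biopsies. Differences are log2 differences ± SE from 1 limma model of all arrays, with p values adjusted by Benjamini-Hochberg over 18768 features and a threshold of 0.05. Biopsies mix cell types, so fewer cells of a type and less RNA per cell cannot be told apart. On each array 13707 to 24296 of the 43603 probes had Cy5 well above background, with the lowest numbers in late hypo scar (13707 to 17973).

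In the pig genome assembly Sscrofa11.1, MT3 and MT1A lie in 1 cluster of metallothionein genes. The order of protein-coding genes there is MT4, MT3, MT-2B, MT1D, LOC100739663, LOC102166944, MT1A and then NUP93. Of these, the accessions of MT3, MT1A and NUP93 were on the array, so MT3 and MT1A were the only metallothioneins of this cluster that were measured. Metallothionein genes are close copies of each other, so transcripts of MT-2B, MT1D or the unnamed neighbours may bind the MT1A probes. Other copies may likewise bind the MT3 probe, which has no second probe to set beside it. Which copies the signals stand for is uncertain, as the probe sequences were not checked. The 2 MT1A probes followed each other closely over the 28 arrays (Pearson r = 0.98), with a mean absolute difference of 0.20 and a largest of 0.64.

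Control skin was the most uniform group for both genes among those with 4 biopsies. MT1A had log2 ratios of -0.45, -0.91, -0.52 and -0.66 in control 49L, 49R, 50L and 50R, a mean of -0.64 ± 0.20 (SD, n = 4). MT3 had -0.65, -0.61, -0.58 and -0.85 in the same biopsies, a mean of -0.67 ± 0.12 (SD, n = 4). Both genes were thus slightly below the reference RNA in each control biopsy.

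Early scar held less MT1A and less MT3 than control skin. In early hyper scar MT1A was at -2.34 (49L), -2.49 (49R), -2.54 (50L) and -1.75 (50R). In early hypo scar it was at -3.52 (49L), -2.52 (49R), -5.41 (50L) and -3.93 (50R), against -0.91 to -0.45 in control skin. All 8 early biopsies lay below all 4 control biopsies, and the early mean was -3.06 ± 1.17 (SD, n = 8). MT1A fell by 2.42 (-2.42 ± 0.45, 95% interval -3.37 to -1.48, limma adjusted p = 2.92e-04), which is 5.37-fold lower than in control skin. The second MT1A probe fell by 2.16 ± 0.44 (limma adjusted p = 7.60e-04, over every probe kept). Only 1.33% of all tested features differed by more than MT1A in this comparison.

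MT3 fell in early scar as well. It was at -1.23, -1.17, -1.75 and -1.98 in early hyper scar and at -1.60, -1.62, -1.90 and -1.57 in early hypo scar (49L, 49R, 50L and 50R in each), against -0.85 to -0.58 in control skin. The 8 early and 4 control biopsies did not overlap for either gene. The share of all features that separate as fully is not given here, so the separation is not read as a trait of these genes. The difference was -0.93 ± 0.23 (95% interval -1.41 to -0.45, limma adjusted p = 0.00299), or 1.91-fold lower. Both genes are thus among the 14.8% of features called lower in early scar, where 38.9% of features were called in either direction. Scar and skin therefore differed in a large part of the array, and the 2 calls are to be read against that share. On the 2 slides that held both kinds of biopsy, MT1A differed by -2.70 and -0.84 and MT3 by -1.02 and -1.36.

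The gap between the 2 genes' falls was itself tested with the log2 ratio of MT1A minus that of MT3 on each array. This value averaged -1.46 ± 1.13 (SD, n = 8) in early scar and 0.04 ± 0.23 (SD, n = 4) in control skin. In an exact two-sided permutation test over the arrays the raw p was 0.0303, and it was 0.0909 after adjustment over the 3 scar phases. A larger fall of MT1A than of MT3 was thus not established at the threshold of 0.05. The corresponding differences were -0.51 in mid scar (adjusted exact p = 0.410) and 0.11 in late scar (adjusted exact p = 0.659).

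**Figure D1:**
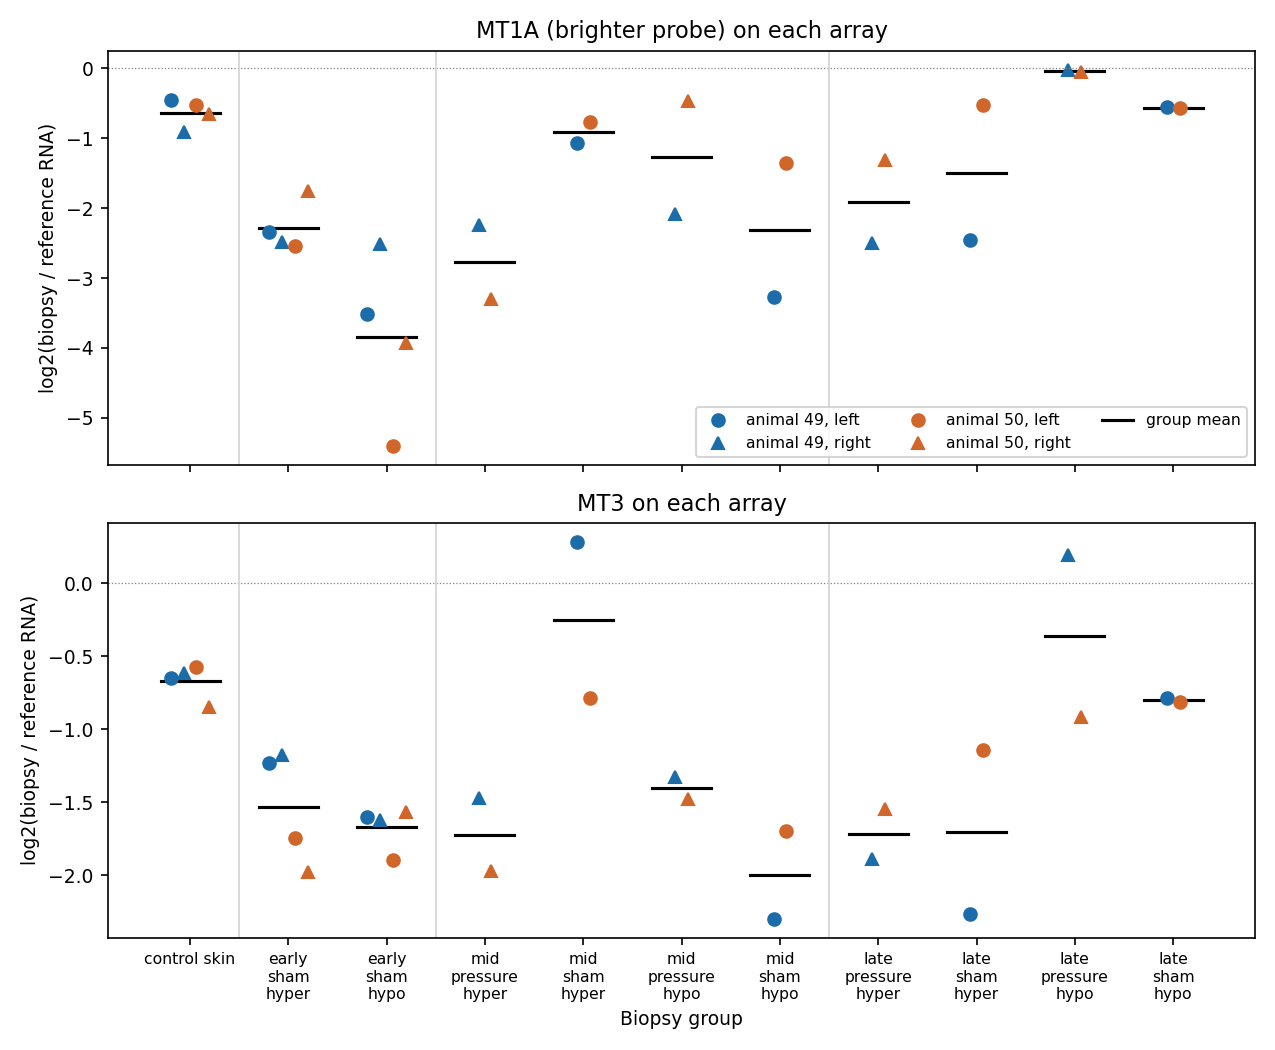
Normalised log2 ratio of biopsy to reference RNA (y axis) of MT1A and MT3 in each of the 28 biopsies, by group (x axis). Points are arrays, coloured by animal and shaped by body side, and black bars are group means. All 8 early biopsies lie below the 4 control biopsies for both genes, while the late hypo biopsies lie near or above the control biopsies after loess.

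Mid scar was intermediate and widely spread. In mid pressure hyper scar MT1A was at -2.24 (49R) and -3.29 (50R), and in mid sham hyper scar at -1.07 (49L) and -0.76 (50L). In mid pressure hypo scar it was at -2.08 (49R) and -0.46 (50R), and in mid sham hypo scar at -3.28 (49L) and -1.36 (50L), against -0.91 to -0.45 in control skin. Of the 8 mid biopsies 6 lay below every control biopsy, and the mid mean was -1.82 ± 1.09 (SD, n = 8). The difference from control skin was -1.18 ± 0.45 (95% interval -2.12 to -0.24, limma adjusted p = 0.0489), with 11.7% of features called lower and 33.8% called in either direction. This call sits at the threshold. Leaving out each array in turn ended the call in 9 of 12 fits. The difference ranged from -1.41 to -0.95 over the 12 fits, and adjusted p reached 0.122. The 9 were the fits without any 1 of the 4 control biopsies, without mid sham hyper 49L or 50L, or without mid pressure hyper 50R, mid sham hypo 49L or mid pressure hypo 49R.

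MT3 in mid scar was at -1.47 and -1.97 in pressure hyper (49R, 50R), 0.28 and -0.79 in sham hyper (49L, 50L), -1.33 and -1.48 in pressure hypo (49R, 50R) and -2.30 and -1.70 in sham hypo scar (49L, 50L). The sham hyper biopsy of 49L was the highest MT3 value of the series and the sham hypo biopsy of the same animal and side the lowest. MT3 was lower in mid scar than in control skin by -0.67 ± 0.23 (95% interval -1.15 to -0.20, limma adjusted p = 0.0283). Leaving out 1 array ended the call in 5 of 12 fits (range of the difference -0.79 to -0.55). These were the fits without control 49L, 49R or 50L, without mid sham hyper 50L, or without mid sham hypo 49L.

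In late scar neither gene passed the threshold against control skin, in a comparison where 13.4% of features were called lower and 39.7% in either direction. MT1A was at -2.50 and -1.31 in late pressure hyper (49R, 50R), at -2.46 and -0.53 in late sham hyper (49L, 50L), at -0.02 and -0.05 in late pressure hypo (49R, 50R) and at -0.56 and -0.56 in late sham hypo scar (49L, 50L). The late mean was -0.998 ± 0.998 (SD, n = 8), and the difference from control skin was -0.36 ± 0.45 (95% interval -1.30 to 0.58, limma adjusted p = 0.552). The interval includes both no difference and a fall of the size seen in mid scar. MT3 averaged -1.15 ± 0.76 (SD, n = 8), a difference of -0.47 ± 0.23 from control skin (95% interval -0.95 to 0.0021, limma adjusted p = 0.105). All 3 comparisons with control skin share the same 4 control arrays.

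How close mid and late scar came to control skin depends on the normalisation of the arrays. On bright probes (mean log2 intensity above 12) the raw log2 Cy5-to-Cy3 ratio had a median per array of -0.70 to 0.07 in early scar, -1.34 to 0.21 in mid scar, -1.13 to -0.04 in late hyper scar, -2.16 to -1.11 in late hypo scar and -0.21 to 0.82 in control skin. All 4 late hypo arrays were thus weaker in the biopsy dye on bright probes than any control array, while the ranges of the other scar arrays overlapped that of control skin. The loess step, which sets the middle of the ratios to 0 at every brightness, raises bright probes most where the dye was weakest on them. With each array only centred on its median, late scar lay below control skin by -1.64 ± 0.46 for MT1A (limma adjusted p = 0.00877) and by -1.69 ± 0.31 for MT3 (limma adjusted p = 3.11e-04). With no normalisation within the array, the differences were -1.96 (adjusted p = 0.00198) and -2.01 (adjusted p = 6.99e-05). Before normalisation MT1A had a raw log2 ratio of -2.14 ± 0.77 in late hypo scar, -2.11 ± 0.63 in late hyper scar and -0.16 ± 0.66 in control skin (SD, n = 4 each). Over the 24 scar arrays, the normalised level correlated with the median raw ratio of bright probes at r = -0.76 for MT1A and -0.69 for MT3, values that come from the same arrays. Among all features 8.1% had an r as low as that of MT1A and 13.1% one as low as that of MT3. Mid scar also lay further below control skin without loess. With median centring the mid differences were -1.997 ± 0.46 for MT1A (adjusted p = 0.00381) and -1.42 ± 0.31 for MT3 (adjusted p = 0.00242), and with no normalisation -2.21 (adjusted p = 0.00182) and -1.63 (adjusted p = 0.00112). The call of the early fall was kept for both genes under each of the alternatives tried, but its size moved, from -3.16 to -1.92 for MT1A and from -1.54 to -0.78 for MT3. With no normalisation the early fall of MT3 was -1.54, against -0.93 after loess.

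**Figure D2:**
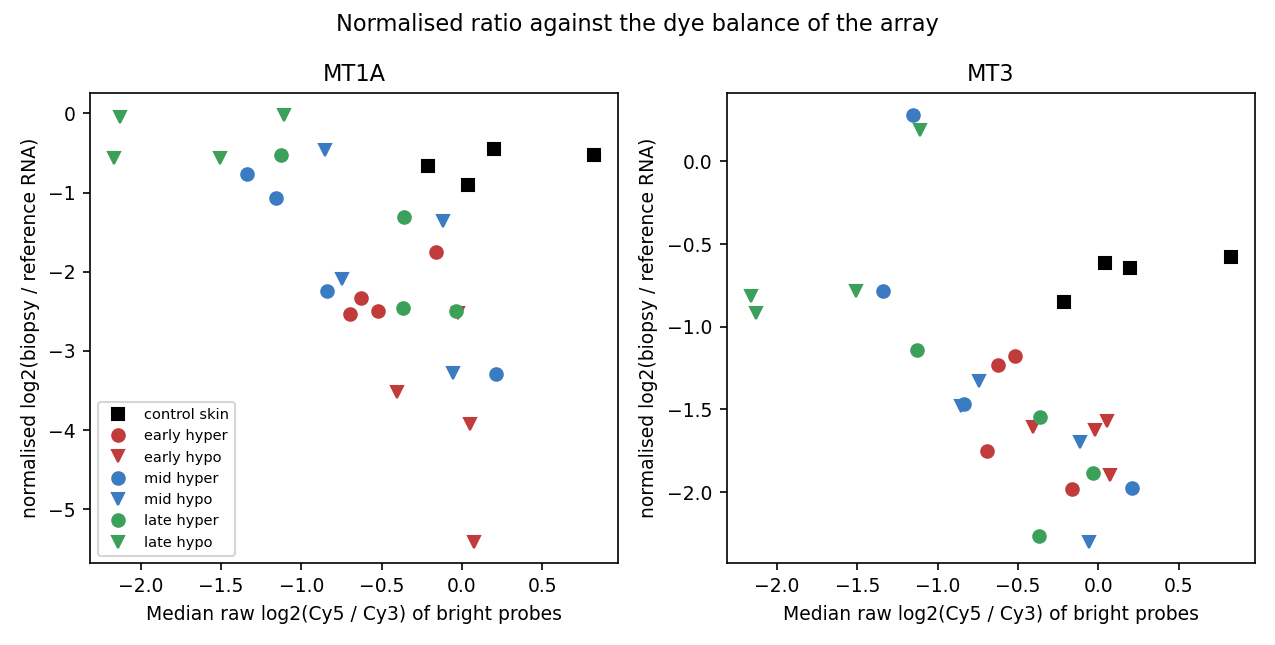
Normalised log2 ratio of MT1A and MT3 (y axis) against the median raw log2 Cy5-to-Cy3 ratio of bright probes on the same array (x axis), 1 point per array, coloured by phase and shaped by pigmentation. Late hypo arrays lie to the left, between -2.16 and -1.11, with some mid and late hyper arrays beside them, and early arrays between -0.70 and 0.07.

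Between scar phases, MT1A was higher in late than in early sham scar. Mid and late sham biopsies were all from the left side and early ones from both, so phase is partly mixed with side. In late sham scar MT1A averaged -1.03 ± 0.96 (SD, n = 4), with a range of -2.46 to -0.53. In early sham scar it averaged -3.06 ± 1.17 (SD, n = 8), with a range of -5.41 to -1.75. Late sham hyper 49L lay within the early range and the other 3 late sham biopsies above it. The difference was 2.03 ± 0.45 (95% interval 1.09 to 2.97, limma adjusted p = 0.00520), or 4.09-fold higher, where 9.65% of features were called higher, 10.3% lower and 19.9% in either direction. It stayed past the threshold in all 12 fits that left out 1 array (1.58 to 2.49), but not with median centring (1.15, adjusted p = 0.0659), with no normalisation (0.93, adjusted p = 0.118) or with slide as a fixed block (1.43, adjusted p = 0.184). Only 1 slide held biopsies of both kinds, and there the difference was 2.01. MT3 differed by 0.35 ± 0.23 (limma adjusted p = 0.279) and turned to -0.56 with median centring. Without late sham hyper 49L the MT3 difference was 0.70 (adjusted p = 0.0401).

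From early to mid sham scar, MT1A differed by 1.45 ± 0.45 (limma adjusted p = 0.0587) and MT3 by 0.48 ± 0.23 (limma adjusted p = 0.216). In that comparison 2.18% of features were called higher, 4.26% lower and 6.44% in either direction. Without early sham hypo 49R, MT1A passed (1.70, adjusted p = 0.0278). Late and mid scar differed by 0.82 ± 0.37 for MT1A (adjusted p = 0.415) and by 0.20 ± 0.19 for MT3 (adjusted p = 0.706). Of all features 0.00533% were called there (1 feature), against 2158 at an unadjusted p under 0.05, in the same limma fit.

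Hyper and hypo scar were compared within each phase, to see how the genes stood in scars that healed darker or paler. In early scar the fall of MT1A was deeper in hypo scar: it averaged -2.28 ± 0.36 in hyper and -3.84 ± 1.20 in hypo scar (SD, n = 4 each). Paired by animal, side and phase, hyper was above hypo in 4 of 4 early pairs, by 1.18 (49L), 0.03 (49R), 2.87 (50L) and 2.17 (50R). With the other MT1A probe it was above in 3 of 4, with 49R at -1e-04. Before normalisation 49R was reversed (raw log2 ratio -2.97 in hyper, -2.39 in hypo scar), and the other early pairs kept their direction. The fitted MT1A difference after loess, 1.56 ± 0.52 (95% interval 0.48 to 2.65), did not pass after adjustment (limma adjusted p = 0.998). No feature passed in that comparison (0% called, against 870 at an unadjusted p under 0.05). MT3 averaged -1.53 ± 0.39 in early hyper and -1.67 ± 0.15 in early hypo scar (SD, n = 4 each), a difference of 0.14 ± 0.26 (95% interval -0.41 to 0.69, adjusted p = 0.998).

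In mid scar the pairs went both ways. MT1A in hyper minus hypo scar was 2.21 (49L), -0.16 (49R), 0.59 (50L) and -2.83 (50R), a fitted difference of -0.05 ± 0.52 (limma adjusted p = 0.984). MT3 in the same order was 2.58, -0.14, 0.91 and -0.49, a fitted difference of 0.71 ± 0.26 (limma adjusted p = 0.519). After loess, the left, sham-treated pairs were above 0 for both genes and the right, pressure-treated pairs below. With the other MT1A probe 49R was at 0.17. Before normalisation 50L was reversed for MT1A (raw log2 ratio -2.10 in hyper, -1.20 in hypo scar). For MT3 both 50L (-2.23 in hyper, -1.76 in hypo) and 50R (-1.72 in hyper, -2.53 in hypo) were reversed. The other mid pairs kept their direction. No feature passed between hyper and hypo in mid scar (0% called, against 1765 at an unadjusted p under 0.05).

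In late scar the order was turned, with less of both transcripts in hyper scar after loess, a direction that was not kept without normalisation. MT3 was at -1.89, -1.55, -2.27 and -1.14 in late hyper scar (pressure 49R and 50R, sham 49L and 50L), against 0.19, -0.92, -0.79 and -0.81 in late hypo scar in the same order. All 4 hyper biopsies lay below all 4 hypo biopsies, again without a share of all features to set beside it. MT3 averaged -1.71 ± 0.48 in hyper and -0.58 ± 0.52 in hypo scar (SD, n = 4 each), a fall of 1.13 (-1.13 ± 0.26, 95% interval -1.68 to -0.58, limma adjusted p = 0.0192), or 2.19-fold lower. In this comparison 4.51% of features were called lower and 5.02% in either direction. MT1A averaged -1.70 ± 0.96 in hyper and -0.30 ± 0.31 in hypo scar (SD, n = 4 each), a difference of -1.40 ± 0.52 (95% interval -2.49 to -0.32) that missed the threshold (limma adjusted p = 0.122). The low MT1A values in late hyper scar were mainly those of animal 49 (-2.46 and -2.50), while 50L (-0.53) was level with its hypo partner (-0.56).

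This late difference rests on the normalisation and on single biopsies. With median centring MT3 differed by -0.06 (limma adjusted p = 0.938), and with no normalisation by 0.21 (adjusted p = 0.655), the other direction. MT1A with no normalisation differed by 0.02 (adjusted p = 0.973). The MT3 call was lost without late sham hyper 49L (-0.78, adjusted p = 0.159), late pressure hyper 49R (-0.99, adjusted p = 0.0924), late pressure hypo 49R (-0.88, adjusted p = 0.0738) or late sham hypo 50L (-1.09, adjusted p = 0.0720). It was -0.48 (adjusted p = 0.388) in animal 50 alone. The MT1A difference passed without late sham hyper 50L (-1.86, adjusted p = 0.0452). On the 1 slide that held both kinds of late biopsy the differences were -1.33 for MT1A and -1.09 for MT3.

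The change of the hyper-to-hypo difference between early and late scar was tested as an interaction. For MT1A it was -2.97 ± 0.74 (95% interval -4.50 to -1.43, limma adjusted p = 0.0260), where 4.54% of features were called lower, 0.336% higher and 4.88% in either direction. After loess the difference was 1.56 in early and -1.40 in late scar, neither called on its own. With no normalisation the late difference was 0.02, so a turn of sign is not established. The change between early and late passed the threshold after loess, and was -1.13 with no normalisation. With median centring it was -1.50 (adjusted p = 0.215), and leaving out 1 array ended the call in 6 of 16 fits (range -3.47 to -2.38). These were the fits without early sham hyper 49L or 50R, without early sham hypo 50L or 50R, without late sham hyper 49L or without late pressure hyper 49R. For MT3 the change was -1.27 ± 0.37 (limma adjusted p = 0.0538) and turned to 0.11 with median centring. It passed in 3 of the 16 fits, without late sham hyper 50L (-1.62), late pressure hyper 50R (-1.41) or late pressure hypo 50R (-1.52).

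**Figure D3:**
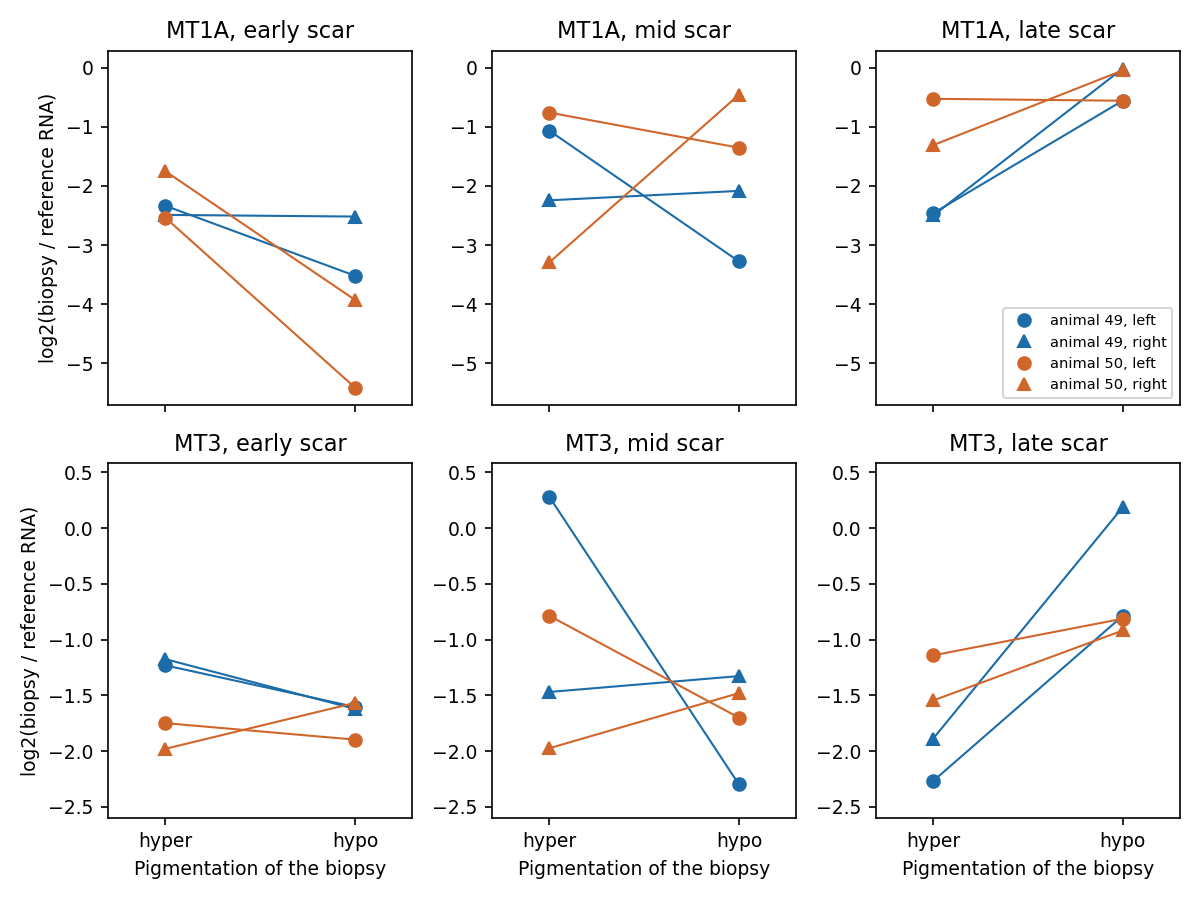
Normalised log2 ratio of MT1A (top) and MT3 (bottom) in hyper and hypo biopsies of the same animal, body side and phase (x axis), joined by lines, for early, mid and late scar. MT1A was higher in hyper scar in 4 of 4 early pairs and in 1 of 4 late pairs, and MT3 in 0 of 4 late pairs, a late direction that was not kept without normalisation.

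Pressure treatment gave no called difference for either gene. In mid scar MT1A averaged -2.02 ± 1.17 with pressure and -1.61 ± 1.13 with sham (SD, n = 4 each), a difference of -0.41 ± 0.52 (95% interval -1.49 to 0.68, limma adjusted p = 0.999). In late scar it averaged -0.97 ± 1.19 with pressure and -1.03 ± 0.96 with sham (SD, n = 4 each), a difference of 0.06 ± 0.52 (95% interval -1.03 to 1.15, limma adjusted p = 0.994). MT3 differed by -0.44 ± 0.26 in mid scar (95% interval -0.99 to 0.11, adjusted p = 0.999) and by 0.21 ± 0.26 in late scar (95% interval -0.34 to 0.76, adjusted p = 0.963). No feature passed in either phase (0% called each, against 850 in mid and 1059 in late scar at an unadjusted p under 0.05). The intervals leave room for differences of more than 2-fold in MT1A either way in late scar.

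Split by pigmentation, pressure minus sham had opposite signs for MT1A. In hyper scar it was -1.18 (49) and -2.53 (50) in mid and -0.04 and -0.78 in late scar. In hypo scar it was 1.19 and 0.89 in mid and 0.54 and 0.51 in late scar. After loess MT1A was thus lower with pressure in 4 of 4 hyper pairs and higher in 4 of 4 hypo pairs. Before normalisation both late hyper pairs went the other way. Their raw log2 ratios were -2.48 (49) and -1.49 (50) with pressure, against -2.81 and -1.67 with sham. The mid hypo pair of 50 was also reversed (-1.41 with pressure, -1.20 with sham), and the other pairs kept their direction. The MT1A interaction after loess, -1.92 ± 0.74, did not pass (limma adjusted p = 0.177). No feature passed in it (0% called, against 3495 at an unadjusted p under 0.05). For MT3 the interaction was -1.26 ± 0.37 (limma adjusted p = 0.110), and -1.61 without late sham hyper 49L. The MT3 pairs were mixed. Pressure minus sham was -1.75 (49) and -1.19 (50) in mid hyper and 0.38 and -0.40 in late hyper scar. In hypo scar it was 0.97 and 0.22 in mid and 0.98 and -0.11 in late scar. The change of the pressure difference between mid and late scar was 0.46 ± 0.74 for MT1A (adjusted p = 0.986) and 0.65 ± 0.37 for MT3 (adjusted p = 0.975), with 0% of features called and 875 at an unadjusted p under 0.05.

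Body side could be read in early scar, where both sides were sham-treated. There the right minus the left mean was 0.78 for MT1A and 0.03 for MT3, and in control skin -0.29 and -0.12. With the other MT1A probe it was 0.44 in early scar and 0.04 in control skin. For MT1A the right side was higher in 3 of 4 early pairs of the same animal and pigmentation.

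**Figure D4:**
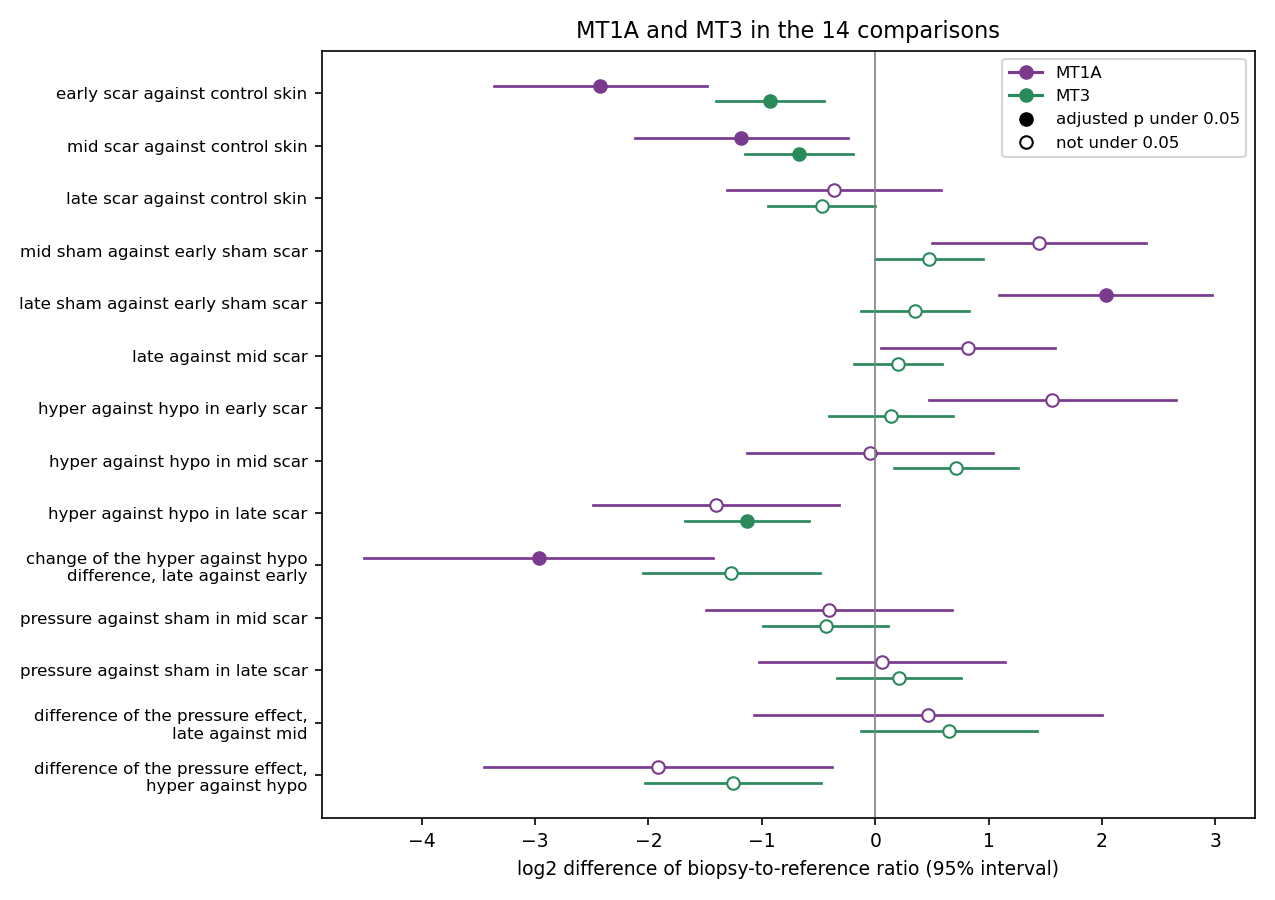
Log2 differences with 95% intervals (x axis) of MT1A and MT3 in the 14 comparisons (y axis), with filled points where the limma adjusted p was under 0.05. MT1A and MT3 were called lower in early and mid scar than in control skin, and the late hyper-to-hypo difference was called for MT3 alone, with the other sign when not normalised.

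Ordered by mean after loess, MT1A was highest in late pressure hypo (-0.03), late sham hypo (-0.56) and control skin (-0.64). It was lowest in mid pressure hyper (-2.77) and early sham hypo scar (-3.84). Among the 11 groups in this order, late pressure hypo alone did not overlap with its lower neighbour, on 2 biopsies in each. MT3 was highest in mid sham hyper (-0.25), late pressure hypo (-0.36), control skin (-0.67) and late sham hypo (-0.80). The next group, mid pressure hypo at -1.40, did not overlap with late sham hypo, and the other neighbours overlapped. The place of late hypo scar beside control skin was not kept before normalisation. Mean raw log2 ratios were -2.14 for MT1A and -2.47 for MT3 in late hypo scar, against -0.16 and -0.35 in control skin. Mid sham hyper scar had raw MT3 ratios of -0.82 (49L) and -2.23 (50L). Of the 55 pairs of groups the ranges overlapped in 25 for MT1A and in 24 for MT3. Most groups held 2 biopsies, whose ranges easily miss each other, and the counts for other features are not given here. Over the 28 arrays the 2 genes correlated at r = 0.68, at 0.63 over the 24 scar arrays and at 0.36 for deviations from group means. MT3 ranked 91 among 2347 named genes by likeness to MT1A.

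By Pearson correlation over the 28 arrays, the 5 genes most like MT1A were the epithelial splicing factor ESRP1 (r = 0.93), the transcription factor GATA3 (0.92), which acts in epidermal differentiation, RHOV (0.91), the transcription factor TFAP2C (0.91) of the keratinocyte lineage, and FADS6 (0.88). ESRP1 was at -2.07 to 1.41 in early scar (median 0.91), against 2.71 to 3.03 in control skin (median 2.90). It fell by 2.29 (-2.29 ± 0.45, limma adjusted p = 5.00e-04), and GATA3 fell too (-1.95 ± 0.41, adjusted p = 7.97e-04). Among the most opposite to MT1A were ARL6IP5 (r = -0.85) and the cholesterol ester hydrolase NCEH1 (-0.77). These arrays share their groups, animals and dye balance. ESRP1 and GATA3 were picked by their correlation with MT1A on the same arrays, so their falls are no separate support for that of MT1A.

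For MT3 the most alike genes included FADS6 (r = 0.90), NAXD (0.89), the scaffold SLC9A3R1 (0.87) and CHMP4C (0.87). CHMP4C fell in early scar (-1.66 ± 0.25, limma adjusted p = 3.05e-05) and was still lower in late scar (-1.002 ± 0.25, adjusted p = 0.00310). Most opposite were PLEKHF1 (-0.85), the collagen-degrading protease CTSK (-0.83) and NCEH1 (-0.81). CTSK rose in early scar (2.38 ± 0.44, limma adjusted p = 2.49e-04). Both CHMP4C and CTSK were picked by their correlation with MT3 on the same arrays, so their changes are no separate support either. FADS6 stood in both lists of most alike genes and NCEH1 in both lists of most opposite ones.

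**Figure D5:**
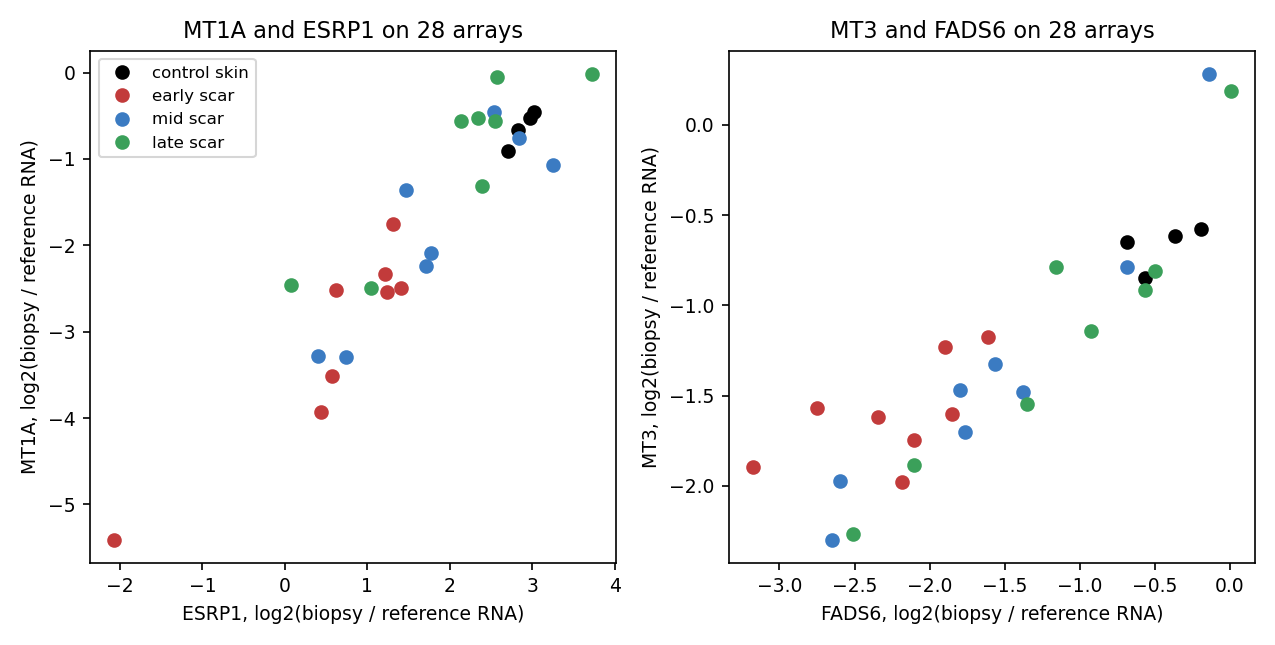
Log2 ratios of biopsy to reference RNA of MT1A against ESRP1 (left) and of MT3 against FADS6 (right) on the 28 arrays, coloured by phase. The points rise together, with r = 0.93 for the MT1A pair and 0.90 for the MT3 pair, each picked as most alike on these arrays.

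Keratinocyte markers were set beside the metallothioneins. Of 22 listed markers of basal and differentiated keratinocytes 5 were measured. In early scar 2 of 5 fell, where 14.8% of all features were called lower. They were the desmosome plaque protein DSP (-3.10 ± 0.87, limma adjusted p = 0.00793) and the cornified envelope protein IVL (-1.33 ± 0.40, adjusted p = 0.0114). KRT2 (-0.85), LGALS7 (-0.69) and DSG1 (-0.41) did not pass, and the median of the 5 was -0.85, against 0.11 for all features. The mean level of the 5 markers was -0.57 to 3.71 in early scar (median 3.15), against 3.84 to 4.15 in control skin (median 4.02). The lowest value was that of early sham hypo 50L, the biopsy with the lowest MT1A. In late scar the mean level was 2.54 to 4.31 in hyper (median 3.28) and 4.09 to 4.89 in hypo biopsies (median 4.51). None of the 5 markers passed between late hyper and hypo scar (limma adjusted p from 0.145 for DSG1 to 0.424 for DSP). These are values after loess, and the late hypo arrays were weak in the biopsy dye on bright probes. Over the 28 arrays the mean level correlated with MT1A at r = 0.84 and with MT3 at 0.64. The keratins of the basal layer were not among the 5 markers measured, and the part of keratinocyte content in the results was not tested.

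Markers of other cell types are read against the 14.8% of all features called lower and 24.1% called higher in early scar. All 5 measured markers of sweat and apocrine glands fell in early scar, with a median of -3.48. Of the 11 genes of the collagen matrix 11 rose, with a median of 2.94, and of 13 macrophage and dendritic cell markers 9 rose, with a median of 1.07. The mean level of the macrophage list correlated with MT1A at r = -0.63 and with MT3 at -0.67 over the 28 arrays.

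Zinc transporters, which set the zinc that metallothioneins bind, changed in both directions. Of 24 listed, 8 were measured, and in early scar 4 rose and 1 fell, with a list median of 0.53 against 0.11 for all features, of which 24.1% were called higher and 14.8% lower. The gene that fell was SLC30A1 (-1.20 ± 0.19, limma adjusted p = 5.51e-05), the zinc exporter of the cell membrane and itself a known target of MTF1. Those that rose move zinc into or out of the secretory pathway or other organelles, namely SLC30A5 (1.35 ± 0.17), SLC30A7 (1.44 ± 0.27), SLC39A7 (1.63 ± 0.24) and SLC30A9 (0.91 ± 0.13), with adjusted p from 5.63e-06 to 3.53e-04. SLC30A1 was lower also in mid (-1.25 ± 0.19, adjusted p = 8.25e-05) and late scar (-1.32 ± 0.19, adjusted p = 2.57e-05). In late against early sham scar, where MT1A rose, SLC30A1 differed by 0.10 ± 0.19 (adjusted p = 0.749), while SLC30A7 (-1.39), SLC39A7 (-1.06) and SLC30A5 (-0.55) fell, 3 of 8 against 10.3% of all features called lower there.

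Of 18 genes of metal response and copper handling 5 were measured. In early scar the caspase inhibitor XIAP (0.86 ± 0.16), which also acts in copper balance, and the copper-dependent collagen cross-linker LOX (2.18 ± 0.43) rose, and the copper-zinc superoxide dismutase SOD1 fell (-0.91 ± 0.25, limma adjusted p = 0.00647), 3 of 5 called against 38.9% of all features. MTF1 was not measured here. Of 13 genes of iron handling 9 were measured and 4 rose, with a median of 0.55, against 24.1% of all features called higher.

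Of 26 antioxidant genes 15 were measured, and in early scar 5 fell and 2 rose, with a median of -0.44. This is 7 of 15 called, against the 38.9% of all features called in early scar. The peroxiredoxin PRDX6 (-2.24 ± 0.21, limma adjusted p = 1.69e-07), the catalase CAT (-1.66 ± 0.27), the glutathione peroxidase GPX2 (-1.43 ± 0.19) and the quinone reductase NQO1 (-1.28 ± 0.15) fell most. The haem oxygenase HMOX1 (0.96 ± 0.30, adjusted p = 0.0151), another stress-induced gene, rose. In late scar 4 of 15 were lower and 3 higher than in control skin, where 13.4% of all features were called lower and 26.3% higher. Of 16 genes of glucocorticoid action 6 were measured and 2 fell in early scar, with a median of -0.43, where 14.8% of all features were called lower. They were HSD11B1 (-1.96 ± 0.18, limma adjusted p = 2.83e-07), the enzyme that regenerates active glucocorticoid, and the glucocorticoid receptor NR3C1 (-0.45 ± 0.17, adjusted p = 0.0395).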

How the data were processed

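The 28 biopsies of 2 pigs were measured on 28 two-colour arrays on 7 slides of 4, with Cy5 on the biopsy and Cy3 on the reference and no dye swap, per the labels. Agilent Feature Extraction 10.7.1.1 gave median spot and local background intensity, and a log10 ratio not used here, per the file headers. The deposited value table, in log2 units, equals the log2 ratio of the deposited scanner files' processed signals within 0.001 for 100% of 43553 singly spotted probes per array. The genome build behind the probes is not given in the sources used here.

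Local backgrounds were capped at the 99th percentile of their array and channel, since single ones reached 649958, then removed by normexp (offset 50) and followed by loess within each array (limma 3.58.1, R 4.3.3). Outlier-flagged spots were set missing (0.532% of feature values, none in the 3 probes). Probes with Cy5 well above background on at least 4 arrays were kept (24513), the brightest standing for its gene or accession, which left 18768 features, 2606 of them with a symbol from RefSeq. The model fitted 11 group means with a block for the animal. The animals come from the labels. Biopsies of 1 animal, side and phase were checked for deviating together: r was over 0.1 in 3 of 4 early pairs and in 4 of the 8 distinct values in all (-0.19 to 0.30), since groups of 2 give 1 value per side.

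Named genes were the 5 most and 3 least correlated with each member, and up to 4 members of lowest p per list. Some genes that this rule selects are not reported here. Members, lists and tests were chosen with earlier results of these data known. The script was tested on simulated data with known shifts. Alternatives changed the background, normalisation, filter, probe, block, animals and arrays. No gene or protein sequence is printed, and the sequences are not analysed here. The number of arrays limits the precision.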

Additional observations from a re-analysis of the deposited data

Results flagged for a closer look

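For MT3, early sham hypo 50L stood apart from its group at a log2 ratio of -1.90, against -1.62 to -1.57 in the other 3 biopsies, a gap of 0.836 of the group's range. Among 9 such checks (the groups of 4, for each of the 3 probes), 1 stood out. Chance alone would flag about 1 in 20 checks, so 1 flag among 9 is not read as more than chance. The 2 MT1A probes are not independent checks. The same biopsy had the lowest MT1A (-5.41) and the lowest mean level of keratinocyte markers (-0.57).

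The hyper-to-hypo difference of MT1A differed between late and early scar by -2.97 in the interaction test (limma adjusted p = 0.0260). It was -1.40 in late and 1.56 in early scar, and neither of these passed on its own. With no normalisation the change was -1.13 and the late difference 0.02.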

How the results depend on the processing

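The 28 results (2 genes in 14 comparisons) were recomputed under 20 alternatives. Of 546 values 484 kept direction and side of the threshold, 28 lost and 11 gained a call, and 23 reversed. The early fall kept its call in all. Leaving the animal out (no replicate block) or pairing biopsies of 1 animal, side and phase as a replicate block changed no call (MT1A in early scar -2.42 with either, adjusted p = 2.60e-04 and 2.82e-04). The cause of the changes below was not tested.

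Median centring gave, for MT1A, -1.64 in late scar against control skin, 1.15 for late against early sham scar and -1.50 for the change of the hyper-to-hypo difference. For MT3 it gave -1.69, -0.56, -0.27 for late against mid scar, -0.17 and -0.062 for hyper against hypo in early and late scar, and 0.11 for the change. No normalisation (added after seeing the data) gave -1.96, 0.93, 0.023 for late hyper against hypo and -1.13 for the change in MT1A. In MT3 it gave -2.01, -0.79, -0.37, -0.27, 0.21 and 0.48. Array weights, also added later, left the sizes for MT3 nearly as they were but ended its call in late hyper against hypo scar (-1.13, adjusted p = 0.0736) and gave one for its change (-1.28, adjusted p = 0.0383).

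MT1A in mid scar against control skin missed the threshold with uncapped backgrounds (-1.14), offset 10 (-1.11), no filter (-1.18), each probe separate (-1.18), the other probe (-1.08), the mean of probes (-1.13), slide as a fixed (-1.08) or random block (-1.18) and animal 50 alone (-0.88). MT3 missed it with offset 10 (-0.61) and slide fixed (-0.86). MT1A for late against early sham missed it uncapped (2.06) and with slide fixed (1.43). The MT1A change missed it uncapped (-3.02), in the value table (-2.80), with offset 10 (-2.80), the other probe (-2.57), slide fixed (-3.69) and animal 50 (-3.14). MT3 in late hyper against hypo missed it with slide fixed (-1.16), only the groups compared (-1.13) and animal 50 (-0.48), and its change passed with a filter at 14 arrays (-1.27).

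Mid hyper against hypo in MT1A turned positive uncapped (0.070), in the value table (0.0031), with the other probe (0.21), the mean of probes (0.084), slide fixed (0.68), slide random (0.026) and animal 49 (1.03). Animal 49 alone also gave, for MT3, -0.56 in late scar against control skin, -0.12 for late against early sham, 1.22 for mid hyper against hypo, -2.19 for the change and -1.66 for the pressure difference between hyper and hypo. For MT1A it gave -2.19 in late hyper against hypo and 0.0071 for pressure in mid scar. Animal 50 alone gave -0.13 for MT3 in early hyper against hypo, -0.13 for MT1A and -0.26 for MT3 under pressure in late scar. That MT1A value was -0.055 uncapped.

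Without 1 array, MT1A ranged from -1.41 to -0.95 in mid scar against control skin, 0.99 to 1.90 for mid against early sham, -0.50 to 0.41 for mid and -1.86 to -0.95 for late hyper against hypo, and -3.47 to -2.38 for the change. Under pressure it ranged from -0.86 to 0.048 in mid and -0.40 to 0.52 in late scar. MT3 ranged from -0.79 to -0.55 in mid and -0.65 to -0.30 in late scar against control skin, -6e-04 to 0.70 for late against early sham, -1.48 to -0.78 for late hyper against hypo, -1.62 to -0.92 for its change, -0.14 to 0.56 for pressure in late scar and -1.61 to -0.90 for the pressure difference. A left-out array left some groups with 1 biopsy, assumed to vary like the others.

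Features called ranged from 2838 to 9686 in early (main 7293), 1741 to 8198 in mid (6339) and 4532 to 9744 in late scar (7458) against control skin, 2 to 2503 for mid (1208) and 11 to 8694 for late (3735) against early sham, 0 to 6729 for late hyper against hypo (942) and 1 to 5691 for its change (915).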
